A study of Mus musculus with 14 samples.

Results

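Ribonuclease P and ribonuclease MRP are a pair of RNA-protein enzymes of the nucleus, and the RNA and protein genes of both were followed here through the cells of the mouse lateral hypothalamic area. The family was listed by name as 10 genes, of which Rpph1 and Rmrp encode the RNAs and Pop1, Pop4, Pop5, Rpp14, Rpp25, Rpp30, Rpp38 and Rpp40 encode proteins. Among the 21568 gene symbols of the count tables, 9 of the 10 were found, and Rpp14 was not analysed here. The family was chosen because Rpph1 and Pop1 differed between diets in Slc32a1 neurons in an earlier look at these same counts, so the values of that comparison are given below as a description and carry no test.

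The data are Drop-seq libraries, in which single cells are caught in droplets with barcoded beads, made from tissue punches of the lateral hypothalamus of male wildtype C57BL/6J mice. There were 7 mice with free access to a control chow matched in taste to the high fat diet and 7 with free access to the high fat diet, all on a reversed light cycle, with 1 library per mouse. Each diet had 4 mice in sequencing pool 1 and 3 in pool 2. The sources used here do not give the age of the mice, the make-up of the diets or the time spent on them.

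Ribonuclease P removes the leader from the front end of precursor transfer RNAs, and ribonuclease MRP cleaves precursor ribosomal RNA and some other RNAs. Each enzyme is built around its own catalytic RNA, made by RNA polymerase III, and most of the protein subunits are shared between them. Both enzymes serve basic RNA maturation in neurons and glia alike.

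The RNAs are shown first because Rpph1 is the member followed most closely below, while the Rmrp RNA was almost unseen. Both were read from the GENCODE M21 transcripts on GRCm38 and are written 5′ to 3′ as DNA letters, with the longest runs of A in capitals (for Rpph1 the first 300 of its bases, which hold all 8 of its longest runs), since Drop-seq beads capture RNA by pairing with stretches of A.
Rpph1: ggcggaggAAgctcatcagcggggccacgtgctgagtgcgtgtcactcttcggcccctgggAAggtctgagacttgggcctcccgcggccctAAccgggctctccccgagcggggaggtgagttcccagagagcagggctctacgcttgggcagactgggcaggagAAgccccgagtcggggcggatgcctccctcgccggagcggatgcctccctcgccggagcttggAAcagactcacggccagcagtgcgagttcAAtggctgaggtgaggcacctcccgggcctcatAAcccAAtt
Rmrp: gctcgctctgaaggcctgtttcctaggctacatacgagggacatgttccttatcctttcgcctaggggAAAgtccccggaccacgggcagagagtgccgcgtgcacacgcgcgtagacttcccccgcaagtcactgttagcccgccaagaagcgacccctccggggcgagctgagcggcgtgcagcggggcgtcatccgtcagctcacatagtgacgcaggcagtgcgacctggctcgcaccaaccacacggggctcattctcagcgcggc
Rpph1 lies on the minus strand at chr14:50807449-50807767 and Rmrp on the minus strand at chr4:43492788-43493058, both annotated as ribozymes. A lincRNA record under the same symbol, Rmrp, spans the ribozyme at chr4:43492783-43493063 on the same strand, and since the tables count by symbol the records cannot be told apart. The Rpph1 RNA is 319 bases long with 67.1% G and C, and its longest run of A has 2 bases and occurs 8 times. The Rmrp RNA is 271 bases long with 64.2% G and C, and its longest run of A has 3 bases and occurs 1 time. Of 141767 annotated mouse transcripts, 2.19% have no run of A longer than that of Rpph1 and 12.5% none longer than that of Rmrp, while the median transcript has a run of 5. A tail added after transcription is not part of these sequences, and how either RNA was captured was not tested. The longest word the pair share is 9 bases, cagcggggc, and Rpph1 holds a tandem repeat with a unit of 21 bases, gcggatgcctccctcgccgga, at positions 182 to 223 counted from its first base. On the opposite strand, the start of Parp2 lies 73 bases from Rpph1, and Ccdc107 overlaps Rmrp by 159 bases. Whether strand was used in counting is not given in the sources used here, so reads of Rmrp and Ccdc107 over that stretch cannot be told apart.

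The cells came from 28410 barcodes, of which 15164 were kept. Kept cells per library ran from 49 to 1753 and UMIs (unique molecular identifiers, each standing for 1 captured RNA molecule) from 118633 to 5169125. Classes were named from clusters by marker genes, and since the clusters were formed on variable genes of the same cells, values with classes taken from marker UMIs alone are given beside the class differences that lead. Slc17a6 neurons, marked by the vesicular glutamate transporter, held 1907 cells in 13 mice with 12 to 255 cells a mouse. Slc32a1 neurons, marked by the vesicular GABA transporter, held 2775 cells in 13 mice with 14 to 416 cells a mouse. Glia (oligodendrocytes, their precursors, astrocytes and microglia together) held 8179 cells in 14 mice. High fat diet replicate 7 had fewer than 10 cells of each neuron class and enters only the glia. Levels are given as CPM, the UMIs of a gene per 1000000 UMIs of the class in that mouse. Marker levels followed the class names: the 6 Slc17a6 markers summed to 2125 (control) and 2081 (high fat diet) CPM in Slc17a6 neurons against 91.6 and 73.3 in Slc32a1 neurons, and the 8 Slc32a1 markers to 4277 and 4360 in Slc32a1 neurons against 657 and 409 in Slc17a6 neurons. Of the 14 libraries 3 stood apart (replicates 1 and 2 of the control group and replicate 1 of the high fat diet group), with 13.9 to 23.7% of their neurons in a subcluster led by Gfra1 and Col25a1 that held 0 to 2.91% of neurons in the other 11 mice. This subcluster, of 387 cells, was assigned to neither neuron class. Its cells are left out of both, as are those of the other unassigned subclusters. All 3 libraries that stood apart were in sequencing pool 1. In all, 3 barcode sequences were kept in more than 1 library.

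Rpph1 in each mouse is described first. In such sums, more RNA per cell and more of the cells that carry it cannot be told apart. In Slc32a1 neurons, Rpph1 stood at 46.2, 78.4 and 116 CPM (lowest, median and highest of 7 control mice) and at 109, 175 and 253 in 6 high fat diet mice. The means were 83.7 ± 22.3 (SD, n = 7) and 182 ± 56.3 (SD, n = 6). All 6 high fat diet mice lay above the control mean and 5 of 6 above the highest control mouse. Within pool 1 the means were 78.8 (4 control mice) and 198 (3 high fat diet mice), a ratio of 2.51, and within pool 2 they were 90.2 and 167 (3 mice each), a ratio of 1.85. Pool 1 holds all 3 libraries that stand apart, among them the lowest control mouse (46.2) and the highest high fat diet mouse (253). In the fit across all genes (edgeR, with pool as a term) the log2 difference was 1.12 ± 0.20 (SE). In that fit 1 of the 7 members tested was called at an adjusted p under 0.05, against 0.0234% of the 8546 genes tested, 2 genes in all, and since the contrast chose the family nothing is read from the count. The fitted log2 difference ran from 0.78 to 1.54 over 26 alternative settings and was 0.89 without the 3 libraries that stand apart.

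The same diet comparison in Slc17a6 neurons was not used to choose the family. Rpph1 stood at 47.6, 72.3 and 254 CPM in 7 control mice (lowest, median and highest) and at 44.6, 130 and 251 in 6 high fat diet mice, with means of 111 ± 83.6 (SD, n = 7) and 133 ± 67.1 (SD, n = 6). The groups overlapped over their whole range. The highest control mice, replicates 6 and 7 at 254 and 207 CPM, rest on 21 and 14 Rpph1 UMIs, and the other 5 control mice lay between 47.6 and 79.2. The log2 difference was 0.72 ± 0.42 (SE) and did not pass (edgeR, adjusted p = 1.0). None of the 7 members tested passed in Slc17a6 neurons, where 0% of the 8676 genes tested did (128, or 1.48%, had an unadjusted p under 0.05, and DESeq2 called 0). Rpph1 remained on the higher side in 26 of 26 alternative settings, from 0.39 to 0.92, and passed in 0. The pool 1 ratio of means was 1.34 and the pool 2 ratio 1.06. The difference between the diet effects of the neuron classes was 0.25 ± 0.24 (SE) on the log2 scale for Rpph1 (edgeR interaction, adjusted p = 1.0), a test that shares the Slc32a1 sums by which the gene was chosen. None of 7 members passed it, against 0% of 9322 genes (350, or 3.75%, at an unadjusted p under 0.05, and 0 by DESeq2). A diet effect on Rpph1 particular to Slc32a1 neurons is therefore not shown.

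**Figure D1:**
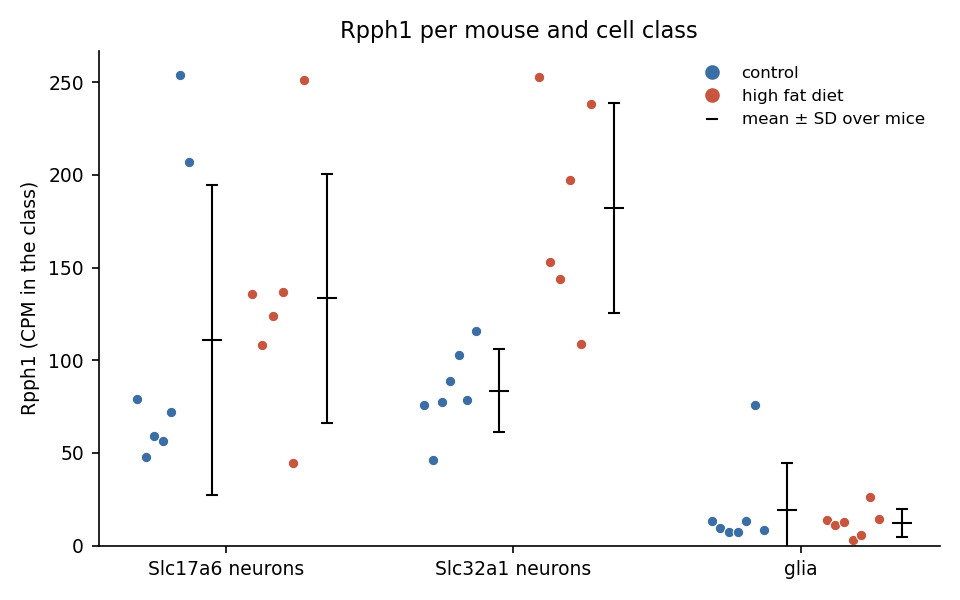
Rpph1 in CPM of the class (vertical axis, linear from 0), 1 point per mouse, for 3 cell classes and both diets, with the mean and SD over mice as black bars (an SD bar that would pass below 0 ends at the axis). In Slc32a1 neurons 5 of 6 high fat diet mice lie above every control mouse, in Slc17a6 neurons the diets overlap, and in glia all mice but control replicate 6 lie at 26.4 or below.

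In glia, Rpph1 was 7.16, 9.41 and 75.9 CPM in 7 control mice (lowest, median and highest) and 2.81, 13.0 and 26.4 in 7 high fat diet mice. The highest value, in control replicate 6, rests on 5 UMIs. Rpph1 was too sparse in glia to pass the filter on low counts in the diet comparison. There 4 members (Pop4, Pop5, Rpp30 and Rpp38) were tested and none passed, against 0% of 7476 genes (152, or 2.03%, at an unadjusted p under 0.05, and 0 by DESeq2).

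Rpph1 was far higher in neurons than in glia. Its mean over mice was 121 ± 74.3 CPM in Slc17a6 neurons (SD, n = 13), 129 ± 64.7 in Slc32a1 neurons (n = 13) and 15.9 ± 18.2 in glia (n = 14). In every one of 13 mice the glial level was below that of both neuron classes. Rpph1 entered the fit that follows through its neuron counts, since its glial counts were too few for the filter on low counts. The alternative settings include a fit with no such filter. The log2 difference of glia from the mean of both neuron classes was -2.68 ± 0.18 (SE), 6.39-fold lower (edgeR with the mouse as a block, adjusted p = 2.81e-14), and it ran from -3.29 to -2.23 over 23 alternative settings, passing in each, at -2.64 with classes from marker UMIs alone. All 7 members tested passed in this comparison, 3 higher and 4 lower in glia, against 87% of the 9039 genes tested (48.5% higher and 38.5% lower), so the family passed about as often as any gene. With TMM scaling the median gene was 0.17 higher in glia on the log2 scale and with no TMM factor it was 0.42 lower (a difference of -0.42), and the split of all calls moved from 4385 higher and 3477 lower to 2830 higher and 5088 lower. With no TMM factor 5 of the 7 members passed, Pop4 higher and 4 lower.

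Within the glia, Rpph1 summed over all mice was 8.57 CPM in oligodendrocytes, the myelin-forming cells (95% Poisson interval 6.65 to 10.9, for counting error only, as for all such intervals here), 6.92 in their precursors (2.25 to 16.1) and 11.2 in microglia, the resident immune cells (3.65 to 26.2). Astrocytes, the supporting glia around synapses and vessels, stood higher at 41.4 (27.7 to 59.4), and their interval did not overlap that of oligodendrocytes. Endothelial cells of the vessels had 11.4 (4.90 to 22.4). Markers of neurons were present in all of these: the 9 neuron markers summed to 617 CPM in oligodendrocytes, 2440 in precursors, 1276 in astrocytes, 724 in microglia and 1805 in endothelial cells, against 17821 in Slc17a6 and 18357 in Slc32a1 neurons. For each 1000 neuron-marker UMIs there were 5.59 Rpph1 UMIs in Slc17a6 neurons, 7.17 in Slc32a1 neurons, 2.83 in precursors, 6.29 in endothelial cells, 13.9 in oligodendrocytes, 15.5 in microglia and 32.4 in astrocytes. The part of neuronal RNA in the glial level was not tested. Barcodes under 500 UMIs, which were not kept as cells, had an Rpph1 level of 54.5 CPM (46.5 to 63.4) against 84.8 (81.9 to 87.8) in kept barcodes. In the barcodes not kept, the level per mouse was 60.1 ± 29.0 on control chow and 49.2 ± 29.5 on high fat diet (SD over 7 mice each).

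The order of the neuron classes was not settled. Slc32a1 neurons had the higher Rpph1 level in 8 of 13 mice, 3 of 7 control mice and 5 of 6 high fat diet mice. The log2 ratio of Slc32a1 to Slc17a6 neurons within a mouse averaged 0.17 ± 0.77 (SD, n = 13) and ran from -1.70 to 1.29. The ratio of the class means was 1.07. The fit gave a log2 difference of 0.42 ± 0.12 (SE; edgeR, adjusted p = 0.0207), but the call was lost with DESeq2 (0.30, adjusted p = 0.505), in cells of 1000 to 4000 UMIs (0.26, 0.415), without the 3 libraries that stand apart (0.39, 0.0566), and without high fat diet replicate 1 (0.35, 0.0814), high fat diet replicate 2 (0.40, 0.0847) or control replicate 4 (0.39, 0.0655). Over all 22 alternatives of this Rpph1 difference the adjusted p ran from 3.6e-06 to 0.505. It also rests on the high fat diet sums by which Rpph1 was chosen. With Rpp25, 2 of 7 members passed between the neuron classes, both higher in Slc32a1 neurons, against 7.64% of 9039 genes (4.19% higher and 3.45% lower).

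Cell by cell, Rpph1 was unevenly spread. A UMI of it was seen in 25.7% of 1907 Slc17a6 neurons and 30.3% of 2779 Slc32a1 neurons (4 of the latter from high fat diet replicate 7), and in 1.22% of 8179 glia, whose median cell had 1008 UMIs against 4183 and 4227 in the neuron classes. With each cell thinned to 500 UMIs the shares were 4.93%, 5.72% and 0.648%. In Slc32a1 neurons the thinned share was 3.43% of control and 7.45% of high fat diet cells (25.5% and 33.9% unthinned). Single cells reached 19 Rpph1 UMIs among Slc17a6 neurons and 29 among Slc32a1 neurons, but 4 among glia. In Slc32a1 neurons, 69 cells (2.48%) with 5 or more Rpph1 UMIs held 592 of the 1820 Rpph1 UMIs, or 32.5%, and came from 11 mice. For comparison, Pop5, a protein gene with 1748 UMIs in the same cells, had 11 such cells (0.396%) with 3.66% of its UMIs. By diet, these Rpph1-rich Slc32a1 neurons were 11 of 1196 control cells (0.92%), with 17.7% of the Rpph1 UMIs, and 58 of 1583 high fat diet cells (3.66%), with 39.3%. Among Slc17a6 neurons they were 7 control cells (0.876%), with 16.9% of the UMIs, and 27 high fat diet cells (2.44%), with 29.6%. Cells of a mouse are not replicates, so no test was made on these counts. The Slc32a1 shares and counts by diet are parts of the sums by which Rpph1 was chosen, so they are a description. In the same class, cells with 5 or more Pop5 UMIs were 0.251% of control and 0.505% of high fat diet cells.

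Cell depth was checked in the same classes. The median UMIs per Slc32a1 neuron, averaged over mice, were 5725 ± 3136 on control chow (SD over 7 mice) and 4417 ± 1338 on high fat diet (6 mice), with a ratio of geometric means of 0.814 (two-sided exact permutation test on log10 values, p = 0.373). Control replicate 7 had the highest Slc32a1 median, 12574 from 14 cells, and the other control medians ran from 3671 to 5928. The ratio of geometric means was 1.08 in Slc17a6 neurons (exact permutation p = 0.76) and 0.973 in glia (exact permutation p = 0.89). The Rpph1 CPM fell with depth within Slc32a1 neurons: it was 237 in cells of 500 to under 1000 UMIs, 196 from 1000 to under 2000, 149 from 2000 to under 4000, 150 from 4000 to under 8000 and 89.2 at 8000 or more. Rpp25 ran the other way across the same bins, at 15.8, 21.7, 32.6, 35.7 and 40.2 CPM, with only 1 UMI in the first. These bins are parts of the Slc32a1 sums by which Rpph1 was chosen, so their diet values are a description and add no replicates. In each of the 5 bins Rpph1 was higher in the high fat diet cells of the Slc32a1 class. There the control values were 204, 132, 60.4, 98.4 and 78.3 CPM, and those of the high fat diet were 258, 234, 196, 196 and 105. At 8000 UMIs or more the Poisson intervals were 68.1 to 89.7 (control) and 90.5 to 120 (high fat diet), a narrower gap than from 2000 to under 4000, where they were 45.9 to 78.1 and 176 to 217. With mice weighted equally, the Slc32a1 means were 78.1 ± 60.8 and 212 ± 47.8 from 2000 to under 4000 UMIs, and 82.0 ± 31.4 and 208 ± 66.1 from 4000 to under 8000 (SD over 6 control and 6 high fat diet mice). In Slc17a6 neurons the control values were 144, 94.5, 85.2, 73.4 and 55.3, and those of the high fat diet 30.9, 137, 158, 109 and 123. The high fat diet value was higher in 4 of 5 of these bins, and the exception, below 1000 UMIs, rests on 4 and 1 UMIs.

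**Figure D2:**
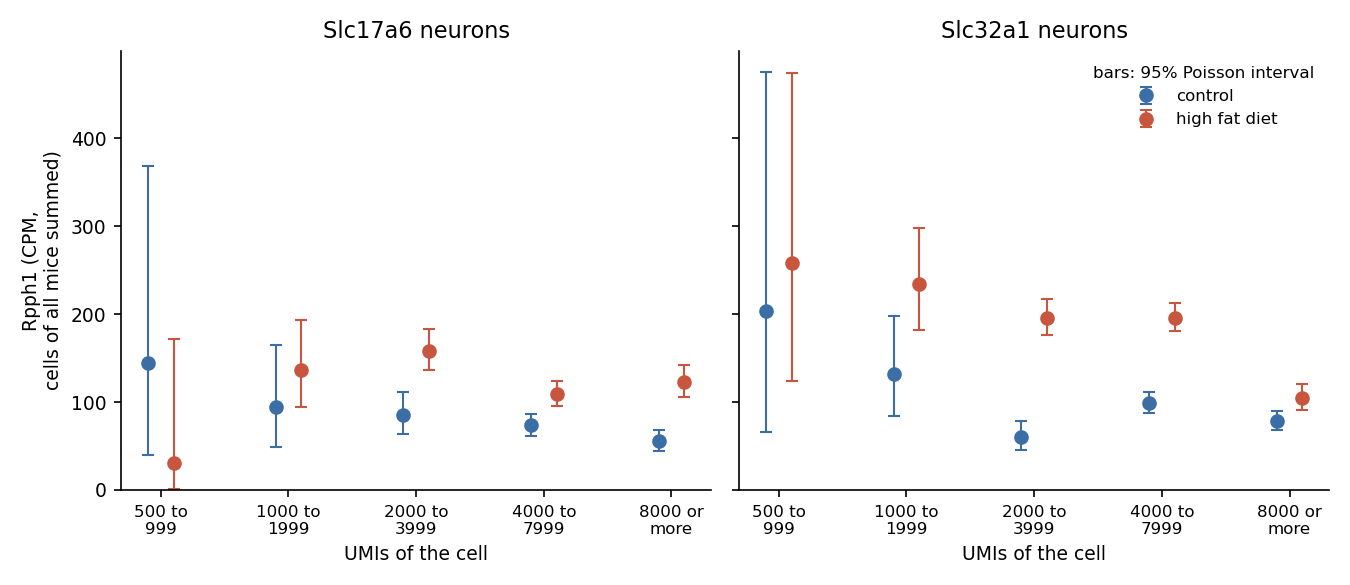
Rpph1 in CPM (vertical axis, linear from 0) in cells grouped by their UMI count (horizontal axis), for Slc17a6 neurons (left) and Slc32a1 neurons (right), cells of all mice of a diet summed, with 95% Poisson intervals that cover counting error only. In Slc32a1 neurons the high fat diet points lie above the control points in 5 of 5 groups, and the gap from 2000 to under 4000 UMIs (60.4 against 196) is wider than at 8000 or more (78.3 against 105). The Slc32a1 groups are parts of the sums by which Rpph1 was chosen and add no replicates.

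Rpph1 differed far more between kinds of neuron than the class means show. Over the 12 Slc32a1 subclusters it ran from 10.5 to 381 CPM (median 106, cells of all mice summed), and over the 7 Slc17a6 subclusters from 28.5 to 128 (median 90.8). With mice of at least 10 cells in a subcluster weighted equally, the highest means were 244 ± 103 (SD, n = 9) in Slc32a1 neurons led by Gal (galanin) and the transcription factor Hmx3, and 176 ± 95.2 (SD, n = 10) in those led by the transcription factor Prdm12. Their summed values were 211 (190 to 234) and 192 (172 to 214). The summed value of 381 came from 84 Slc32a1 neurons led by Npw, the precursor of neuropeptide W, with 94 Rpph1 UMIs and a median cell of 1835 UMIs. Only 2 mice, both control, had 10 cells of that subcluster, and their mean was 145 ± 10.0 (SD). Its summed value was 213 in control and 572 in high fat diet cells, so its place in the order depends on how mice are weighted. Slc32a1 neurons led by Hmx3 and Nts (neurotensin) had 135 (122 to 149) summed. At the low end were Slc32a1 neurons led by Nr4a2, Cav1 and Crh at 10.5 (2.17 to 30.8, 3 UMIs), those led by Pvalb (parvalbumin) at 21.1 (7.74 to 45.9), each with only 1 mouse of 10 cells, and the larger group led by C1ql2 and Lhx6 at 53.7 (42.6 to 66.8). Among Slc17a6 neurons, the subcluster led by Cngb3, Plce1 and Pax6 was lowest at 28.5 (15.6 to 47.9), and those led by Fezf2 and Scn4b and by Tcf7l2 were highest at 128 and 124 (means over 10 mice 122 and 123). Neurons of the classic lateral hypothalamic peptides were low: Hcrt (hypocretin) neurons had 31.6 (21.6 to 44.6) and Pmch (melanin-concentrating hormone) neurons, of which only 1 mouse had 10 cells, 14.7 (5.40 to 32.0). In the middle of the order, from 74.0 to 135, neighbouring subclusters had overlapping intervals. Unassigned neurons are left out of this order. Summed together they had an Rpph1 level of 122 (107 to 137), and the unassigned subcluster led by Gfra1 and Col25a1 had 156 (133 to 183). The subclusters were formed from the genes of these same cells, so their levels are a description. With the cells of each diet summed, Rpph1 was higher in high fat diet cells in 12 of 12 Slc32a1 subclusters and in 6 of 7 Slc17a6 subclusters. These sums come from the same mice as the class values and add no replicates. The Slc32a1 subclusters are parts of the sums by which Rpph1 was chosen, so their count is a description. In the same 12 subclusters Pop5, not called for diet, was higher in 11, and the other protein members in 2 (Pop1) to 8 (Rpp38).

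**Figure D3:**
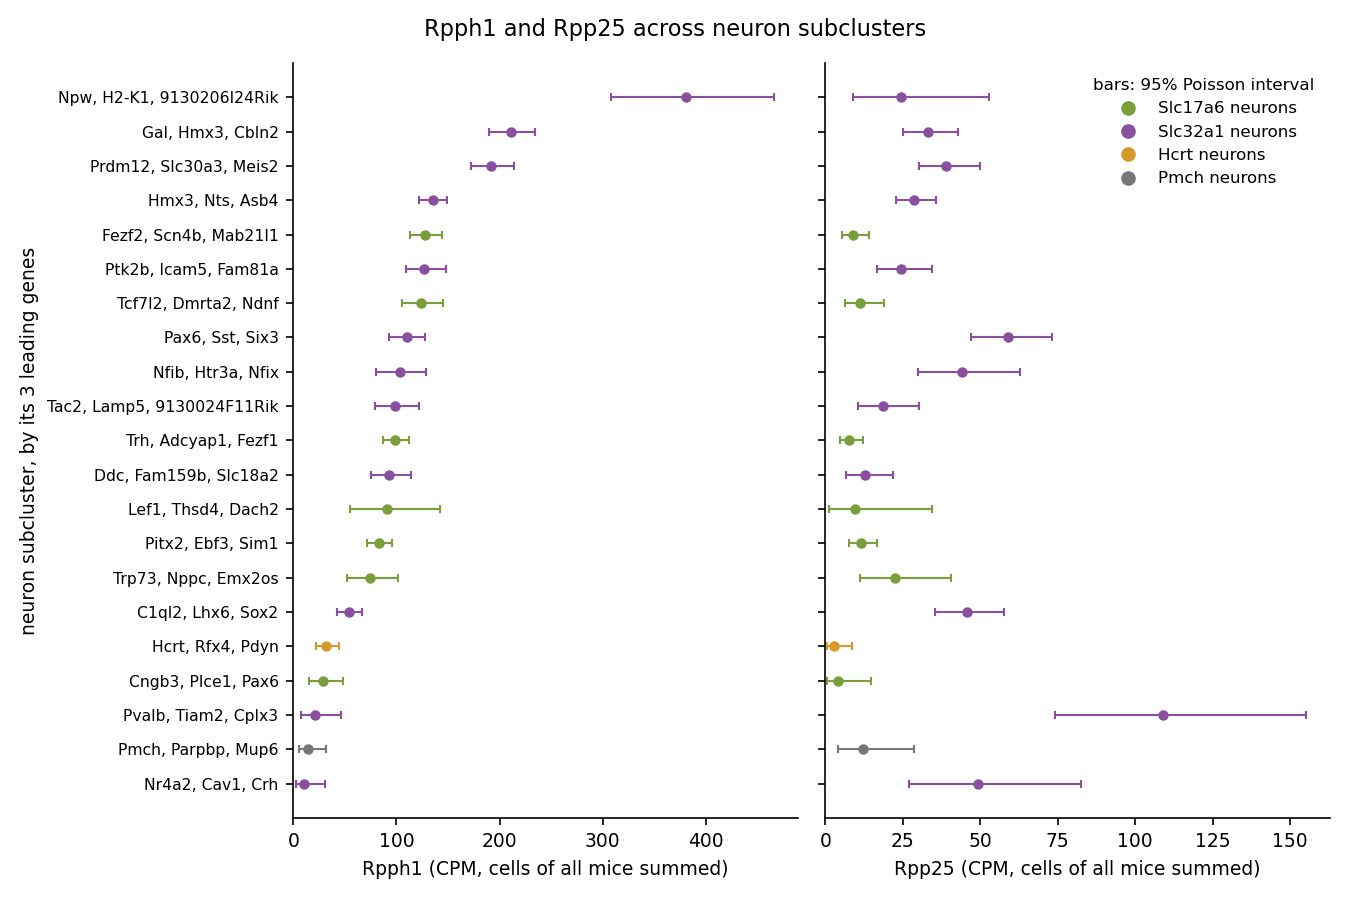
Rpph1 (left) and Rpp25 (right) in CPM, linear axes from 0, in each named neuron subcluster, cells of all mice summed, with 95% Poisson intervals that cover counting error only; subclusters are ordered by Rpph1, named by 3 leading genes and coloured by class. Rpph1 spans 10.5 to 381, where the top value, for the Npw subcluster, falls to 145 as a mean over its 2 mice with 10 cells. The parvalbumin subcluster, with 1 such mouse, is among the lowest for Rpph1 at 21.1 and the highest for Rpp25 at 109.

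Rmrp, the RNA of ribonuclease MRP, gave almost no signal. It had a row in 8 of the 14 tables and 12 UMIs in all kept barcodes, against 3227 for Rpph1. In the classes it had 4 UMIs in Slc17a6 neurons, 5 in Slc32a1 neurons and 1 in glia. No diet or class difference in Rmrp was detectable at this depth, and it did not pass the filter on low counts. With no filter its log2 difference of glia from neurons was -0.80 (edgeR, adjusted p = 0.565).

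Rpp25 was the protein subunit that differed most between the neuron classes. In the human enzyme it pairs with Pop7 (also called Rpp20) and binds the catalytic RNA, and its gene lies on the plus strand at chr9:57504026-57505448. It stood at 3.17, 12.1 and 24.2 CPM in Slc17a6 neurons (lowest, median and highest of 13 mice), at 11.5, 39.8 and 69.5 in Slc32a1 neurons and at 0, 0.868 and 2.61 in glia (14 mice). The means were 11.6 ± 5.04, 38.7 ± 18.2 and 0.877 ± 0.891 (SD). Slc32a1 neurons had the higher level in 13 of 13 mice, by 1.15 to 5.9-fold, although the ranges of the neuron classes overlapped. The log2 difference was 1.75 ± 0.16 (SE; edgeR, adjusted p = 9.74e-16), 3.37-fold, and it stayed between 1.70 and 1.83 and passed in 21 of 21 alternative settings, at 1.81 with classes from marker UMIs alone. Summed glia lay below the range of both neuron classes, with a log2 difference of -3.48 ± 0.30 (SE; edgeR, adjusted p = 1.59e-18). The 10 Rpp25 UMIs in glia came from 8179 cells. Of these UMIs, 5 were in oligodendrocytes, 5 in their precursors and 0 in astrocytes or microglia. By glial type, Rpp25 summed over mice was 0.63 CPM in oligodendrocytes (0.205 to 1.47). Precursors stood at 6.92 (2.25 to 16.1), an interval that holds the summed level of 10.1 in Slc17a6 neurons but not 36 in Slc32a1 neurons.

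The Rpp25 level also varied among the Slc32a1 subclusters. The parvalbumin subcluster had 109 CPM (Poisson interval 74.0 to 155, 43 cells, 96.9 in its 1 mouse with 10 cells), the one led by Pax6, Sst and Six3 had 59.0 (47.1 to 73.0), the one led by Nr4a2, Cav1 and Crh had 49.2 (26.9 to 82.5) and that led by C1ql2 and Lhx6 had 45.6 (35.4 to 57.8). The one led by Ddc, the enzyme of the last step of dopamine synthesis, was at 12.8 (6.79 to 21.8), the lowest summed value. Over the 7 Slc17a6 subclusters Rpp25 ran from 4.08 to 22.6, and in Hcrt neurons it was 2.96 (0.610 to 8.65). By diet, the means in Slc32a1 neurons were 42.9 ± 22.1 (control, n = 7) and 33.7 ± 12.6 (high fat diet, n = 6), and in Slc17a6 neurons 12.8 ± 6.35 and 10.2 ± 2.87 (SD; edgeR log2 difference -0.12 ± 0.34, adjusted p = 1.0 in the latter).

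Pop4, the subunit known in human as Rpp29, was the member that favoured glia. Its gene lies on the minus strand at chr7:38261996-38271423. Levels were 16.2, 32.1 and 59.3 CPM in Slc17a6 neurons (lowest, median and highest of 13 mice), 26.0, 34.3 and 69.5 in Slc32a1 neurons and 42.7, 84.4 and 121 in glia (14 mice). Glia were higher than Slc17a6 neurons in 13 of 13 mice and than Slc32a1 neurons in 12 of 13. The log2 difference was 2.06 ± 0.10 (SE; edgeR, adjusted p = 2.23e-29), and it ran from 1.47 to 2.39 over 23 alternative settings, passing in each, at 1.95 with classes from marker UMIs alone. By glial type, Pop4 summed over mice was 98.5 CPM in oligodendrocytes (91.7 to 106), 73.3 in their precursors (54.9 to 95.9), 34.3 in astrocytes (21.9 to 51.0) and 18 in microglia (7.77 to 35.4), and the last pair of intervals reached down to or below the summed levels of 29.5 in Slc17a6 and 33.2 in Slc32a1 neurons. Among Slc32a1 subclusters, those led by Pvalb (63.2, interval 37.5 to 99.9) and by Nfib and Htr3a (57.0, 40.7 to 77.6) were the highest.

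**Figure D4:**
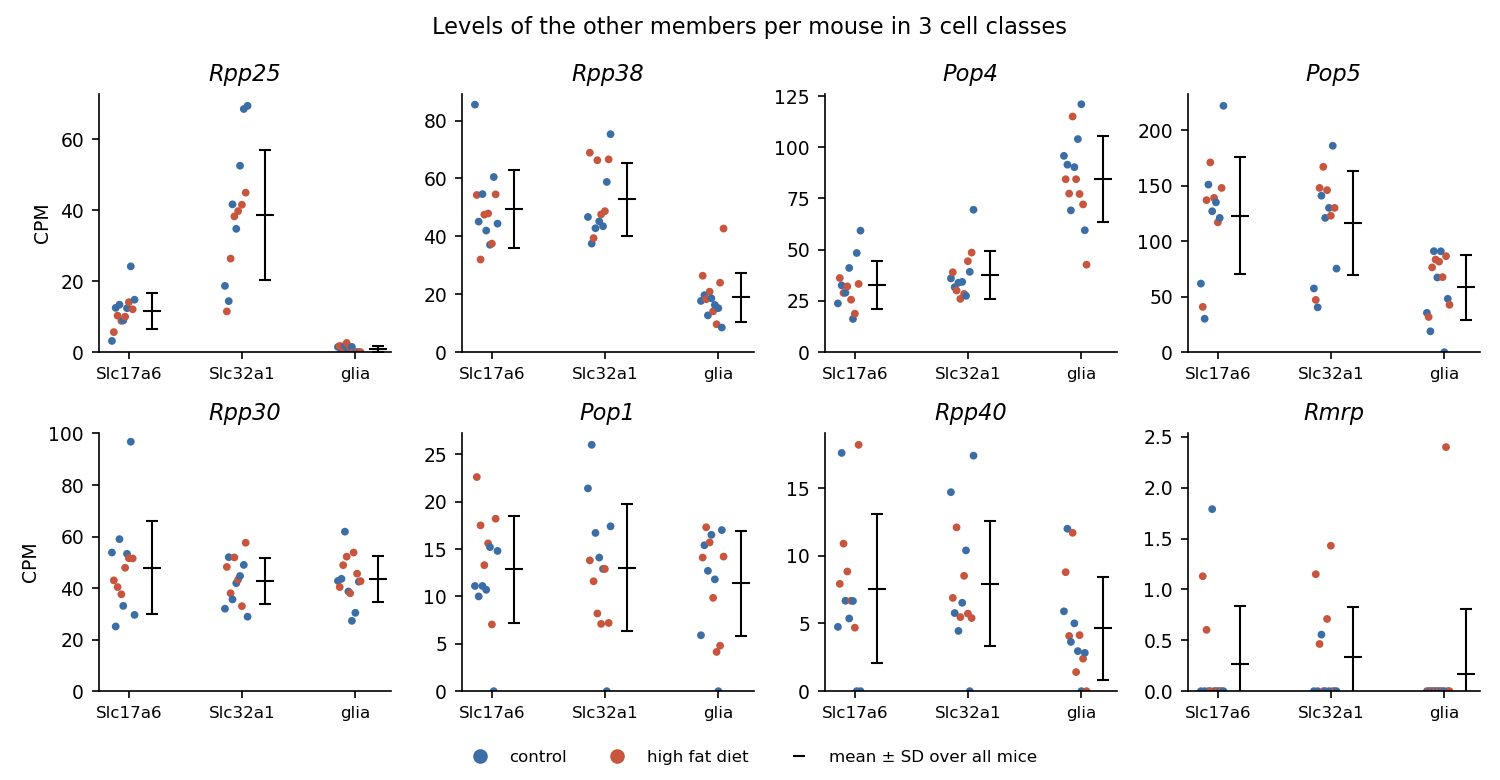
CPM of the class (vertical axes, linear from 0, each gene with its own scale) for the other 8 members in Slc17a6 neurons, Slc32a1 neurons and glia, 1 point per mouse coloured by diet, with the mean and SD over all mice in black (an SD bar that would pass below 0 ends at the axis). Rpp25 is highest in Slc32a1 neurons (mean 38.7) and near 0 in glia, Pop4 is highest in glia (84.6), Rpp38 is lowest in glia (18.9), and Rmrp is at 0 in most mice.

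Rpp38, which in the human enzyme sits together with Pop4 and Rpp21, was lower in glia. Its gene lies on the minus strand at chr2:3328949-3332643. The means were 49.5 ± 13.5 CPM in Slc17a6 neurons (SD, n = 13), 52.9 ± 12.6 in Slc32a1 neurons (n = 13) and 18.9 ± 8.46 in glia (n = 14). The glial level was the lowest of the 3 classes in 13 of 13 mice. The log2 difference was -0.86 ± 0.12 (SE; edgeR, adjusted p = 1.62e-09), between -1.45 and -0.78 over 23 alternatives, passing in each. By glial type, Rpp38 summed over mice was 15 CPM in oligodendrocytes (12.4 to 17.9), 22.8 in astrocytes (13.1 to 37.1) and 20.2 in microglia (9.25 to 38.4). Precursors stood at 40.1 (26.9 to 57.6), an interval that holds the summed levels of 46.6 in Slc17a6 and 49 in Slc32a1 neurons. Thus Pop4 and Rpp38, neighbours in the human enzyme, lay on opposite sides of the comparison of summed glia with neurons, as they did in oligodendrocytes.

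Pop5 and Rpp30 belong to another module of the human enzyme, together with Rpp40 and Rpp14. Pop5 (chr5:115235836-115245351, plus strand) had means of 123 ± 52.8, 116 ± 46.7 and 58.7 ± 29.3 CPM in Slc17a6 neurons, Slc32a1 neurons and glia (SD over 13, 13 and 14 mice, as below). The glial level was the lowest in 13 of 13 mice. Summed over mice, Pop5 was 64.8 CPM in oligodendrocytes (59.3 to 70.6), 51.4 in astrocytes (36 to 71.1) and 31.5 in microglia (17.2 to 52.8). Precursors were nearer the neurons at 95.4 (74.3 to 121), against 122 (115 to 129) in Slc17a6 and 126 (121 to 132) in Slc32a1 neurons. The fitted log2 difference was small with TMM scaling at -0.22 ± 0.08 (SE; edgeR, adjusted p = 0.0065), it was -0.81 with no TMM factor, and in cells of 1000 to 4000 UMIs it turned to 0.16 (adjusted p = 0.208). Much of the spread of Pop5 lay with the 3 libraries that stand apart. Their Pop5 levels were 30.1 to 61.8 in Slc17a6 neurons against 117 to 222 in the other 10 mice, and 40.4 to 57.4 in Slc32a1 neurons against 75.3 to 186. In glia they had 18.8 to 35.4 against 0 to 91.0 in 11 mice. Rpp25 showed the same split in Slc32a1 neurons, at 11.5 to 18.7 against 26.4 to 69.5. Of the 9 members, only Pop5 and Rpp25 had separate ranges in these 3 libraries and the rest in at least 1 class. The 3 include mice of both diets, and all were in sequencing pool 1, which also held other libraries of both diets. The cause of the split was not tested.

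**Figure D5:**
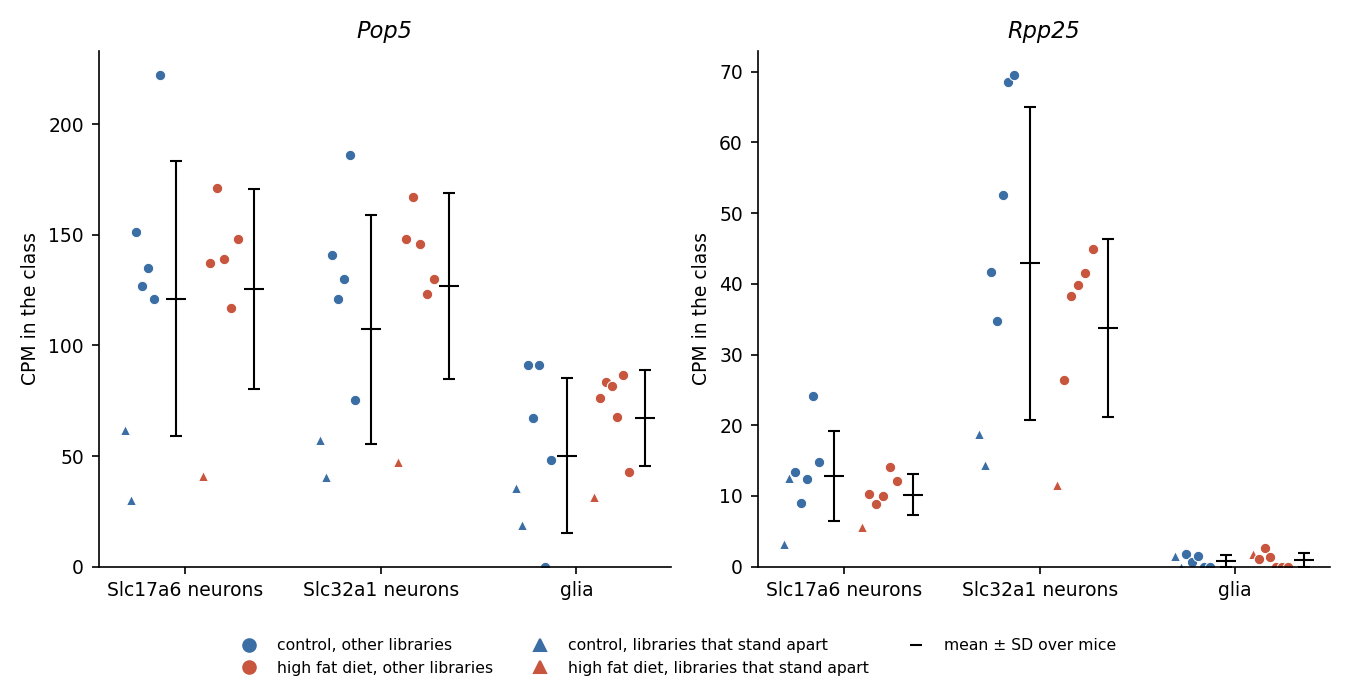
Pop5 (left) and Rpp25 (right) in CPM of the class (vertical axes, linear from 0), 1 point per mouse by class and diet, with triangles for the 3 libraries that stand apart, circles for the others, and the mean and SD in black. The triangles for Pop5 lie at 30.1 to 61.8 in Slc17a6 neurons and 40.4 to 57.4 in Slc32a1 neurons, below every circle of those classes, and those for Rpp25 in Slc32a1 neurons lie at 11.5 to 18.7.

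Rpp30 (chr19:36083716-36104777, plus strand) had means of 47.9 ± 17.9, 42.8 ± 8.84 and 43.5 ± 8.99 CPM in Slc17a6 neurons, Slc32a1 neurons and glia (SD). Its fitted log2 difference in glia was 0.60 ± 0.11 (SE; edgeR, adjusted p = 3.51e-07) with TMM scaling and 0.01 (adjusted p = 0.915) with no TMM factor, so the call rests on the scaling. Pop1 (chr15:34495304-34530648, plus strand), the largest protein shared by both enzymes, took its direction from the scaling. Its means were 12.9 ± 5.63, 13.0 ± 6.68 and 11.4 ± 5.56, and its fitted log2 difference in glia was 0.47 ± 0.18 (SE; edgeR, adjusted p = 0.0141), which became -0.12 with no TMM factor and did not pass in 12 of 21 alternatives. Rpp40 (chr13:35893472-35906359, minus strand) had 7.55 ± 5.50, 7.94 ± 4.64 and 4.63 ± 3.82 and did not pass the filter on low counts. With no filter the log2 difference of Rpp40 in glia was -0.23 (edgeR, adjusted p = 0.428).

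Pop1 is the other member whose diet values in Slc32a1 neurons chose the family. It stood at 0, 16.7 and 26.0 CPM (lowest, median and highest of 7 control mice) and at 7.10, 9.90 and 13.8 in 6 high fat diet mice, with means of 15.5 ± 8.15 and 10.1 ± 2.99 (SD). All 6 high fat diet mice lay below the control mean, but the groups overlapped. The ratio of means was 0.476 in pool 1 and 1.17 in pool 2, where control replicate 6 had 0 Pop1 UMIs. Pool 1 holds all 3 libraries that stand apart, among them the highest control mouse at 26.0 CPM. The fitted log2 difference was -0.66 ± 0.27 (SE), with -1.05 ± 0.38 in pool 1 alone and -0.24 ± 0.38 in pool 2 alone, so in pool 2 the fit and the ratio of means differ in sign. With the cells of each diet summed, Pop1 was lower with high fat diet in 10 of 12 Slc32a1 subclusters. These are parts of the sums by which Pop1 was chosen, so the count is a description and adds no replicates. In Slc17a6 neurons the means were 10.4 ± 5.04 (control, n = 7) and 15.7 ± 5.26 (high fat diet, n = 6), with a log2 difference of 0.48 ± 0.30 (SE; edgeR, adjusted p = 1.0). The difference between these diet effects was -1.10 ± 0.37 (SE; edgeR interaction, adjusted p = 1.0) and did not pass. That test shares the Slc32a1 sums by which Pop1 was chosen, as do the counts within mice, so nothing is read from either. Within mice, Pop1 was higher in Slc32a1 than in Slc17a6 neurons in 5 of 7 control mice and in 1 of 6 high fat diet mice. The values rest on 134 Pop1 UMIs in Slc17a6 and 177 in Slc32a1 neurons.

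The other protein members showed no diet difference that passed. Their log2 differences (high fat diet against control) lay between -0.20 and 0.18 in Slc17a6 neurons, between -0.20 and 0.29 in Slc32a1 neurons and between -0.08 and 0.31 in glia, with standard errors of 0.20 to 0.38, 0.18 to 0.29 and 0.18 to 0.33. The median over the members tested was -0.03 in Slc17a6 neurons (median of all genes 0.01), 0.18 in Slc32a1 neurons (0.00) and 0.20 in glia (0.00).

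The rest of the pathway was read from lists chosen with earlier results of these data known, and no gene of any of them passed a diet comparison, the interaction or the comparison of the neuron classes. Over all genes, 0 to 0.0234% passed a diet comparison or the interaction, and 7.64% passed between the neuron classes. Of 4 further subunits of the enzymes, 3 were tested. Pop7, the partner of Rpp25, had a log2 difference of 0.13 ± 0.14 (SE) between diets in Slc32a1 neurons and -0.01 ± 0.08 between the neuron classes, where Rpp25 itself was at 1.75. The median diet difference in Slc32a1 neurons was 0.06 over 27 of 30 genes of RNA polymerase III and its factors (18 higher, 9 lower), 0.05 over 8 of 11 genes of the mitochondrial, protein-only ribonuclease P and transfer RNA maturation (4 higher, 4 lower), 0.02 over 38 of 40 pre-rRNA processing genes (22 higher, 16 lower) and -0.16 over 4 of 23 other small or nuclear noncoding RNAs (0 higher, 4 lower). The median over all genes was 0.00. Parp2, the neighbour of Rpph1 on the other strand, was at 0.08 ± 0.18 (SE), and Ccdc107, which overlaps Rmrp, at -0.02 ± 0.20.

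Between glia and neurons most genes of these lists passed, as did 87% of all genes, and the values that follow are log2 differences with TMM scaling. Of the 3 further subunits tested, Rpp25l (a relative of Rpp25) was at 0.28 ± 0.09 (SE; edgeR, adjusted p = 0.00514) but turned to -0.31 (adjusted p = 0.00152) with no TMM factor, and Pop7 (-0.65 ± 0.09, adjusted p = 2.12e-10) and Rpp21 (-0.14 ± 0.07, adjusted p = 0.0488) were lower in glia under both scalings. Of the polymerase III list 14 were higher in glia and 7 lower among 26 tested, with Brf1, part of the initiation factor, at 1.87 and Maf1, a repressor of the polymerase, at 1.21. Of the mitochondrial and transfer RNA list 5 were higher and 2 lower among 8, with Hsd17b10, a subunit of the mitochondrial enzyme, at 2.13 and Ssb, which binds the ends of polymerase III transcripts, at -0.59. Of the pre-rRNA list 17 were higher and 14 lower among 38, with Imp4, a part of the small subunit processome, at 2.08 and Nop10, a protein of pseudouridine-guiding particles, at -1.33. Of the other noncoding RNAs 4 were higher and 0 lower among 5 tested of 23, with Neat1, the RNA of paraspeckles, at 8.65 and Malat1, a nuclear speckle RNA, at 2.65. The list medians were -0.14 for the subunits, 0.40 for polymerase III, 0.39 for the mitochondrial and transfer RNA list, 0.54 for the other noncoding RNAs and 0.19 for pre-rRNA processing, against 0.17 for all genes. With no TMM factor, where the median of all genes was -0.42, the same medians were -0.73, -0.19, -0.20, -0.05 and -0.40, so all but that of the subunits changed sign. The calls were then 7 higher and 12 lower for polymerase III, 3 and 4 for the mitochondrial and transfer RNA list, 7 and 22 for pre-rRNA processing and 2 and 2 for the other noncoding RNAs. Brf1, Maf1, Hsd17b10, Imp4, Neat1 and Malat1 were called higher and Ssb and Nop10 lower under both scalings. Parp2 was at 0.58 with TMM and -0.01 with no TMM factor and Ccdc107 at -1.27 and -1.85, while Rpph1, beside Parp2, was at -2.68 with TMM.

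The genes whose level over the 13 mice ran most like Rpph1 in Slc32a1 neurons are given as a description, from 8546 genes that passed the filter on low counts. By Pearson's r of log2(CPM + 1) they included Grp, which encodes gastrin-releasing peptide (0.90), Grpel2, a mitochondrial protein import factor (0.78), Mphosph8, a chromatin silencing protein (0.76), and Farsb, a subunit of a transfer RNA synthetase (0.75), and the tenth gene was at 0.71. The mice of these points share diet and library, and these 4 genes had an r with Rpph1 of -0.39, -0.06, 0.11 and -0.58 over the 13 mice in Slc17a6 neurons. No other member ran closely with Rpph1 in Slc32a1 neurons, with r from -0.13 for Pop1 to 0.55 for Rpp38, and Parp2 was at 0.21.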

How the data were processed

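The deposited files are 14 tables of whole-number UMI counts per gene symbol and barcode, 1 per mouse, made by the authors before deposition. The tools STAR 2.4.2a, Picard 2.2.4 and bcl2fastq 2.18.0.12 and the builds mm10 and GRCm38 come from the submitters' processing notes. The sources used here do not give the counting tool, the annotation or the strand setting. Capture by a stretch of A means that counts of an RNA without a tail depend on how it was primed.

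Barcodes with at least 500 UMIs, 300 genes and at most 20% mitochondrial UMIs were kept (15378 of 28410). Scrublet (expected rate 5%) marked 214 of these as doublets (1.39%), which were removed; 3 libraries under 300 cells were not run through it. The remaining 15164 cells were clustered in scanpy 1.11.5 (2000 variable genes, 30 components, 15 neighbours, Leiden resolution 1) into 19 clusters, and neurons again into 25 subclusters. A class needed 3 markers raised 1.5-fold and seen in 10% of cells, and a neuron class a transporter ratio of 3. Since classes and names were rebuilt, they may differ from the study's.

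UMIs were summed per mouse and class where a mouse had 10 cells or more. Tests used edgeR 4.0.16 in R 4.3.3 (quasi-likelihood, robust, TMM, filterByExpr) over all genes, with Benjamini-Hochberg adjustment and a threshold of 0.05. Diet fits had sequencing pool as a term, and class and interaction fits had the mouse as a block. Each mouse was 1 library, so the p-values of the diet fits measure the spread between mice. In the class and interaction fits the block takes out differences in level between mice, and the p-values measure the spread that remains. Poisson intervals (95%) cover counting error only. The fits were tested on simulated counts. Alternatives were RLE size factors, DESeq2 1.42.0, no filter on low counts, classes from marker UMIs of each barcode, cells of 1000 to 4000 UMIs, a stricter barcode filter (1000 UMIs, 10% mitochondrial), doublets kept, oligodendrocytes alone as glia, each pool alone, no pool term, each mouse left out, and the 3 libraries that stand apart left out. A term for those libraries and no TMM factor were added after seeing the data. The members, gene lists and tests were chosen with earlier results of these data known. The named genes are all members, Parp2 and Ccdc107, up to 4 genes of each pathway list with the smallest p among those past the threshold, the leading genes of subclusters, and the 5 genes whose level ran most like Rpph1 (log2 with a pseudocount of 1), of which 1 is not reported here. Sequences and positions are from GENCODE M21 on GRCm38.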

Additional observations from a re-analysis of the deposited data

Results flagged for a closer look

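Within a group of mice, a single value stood far from the rest in 5 of 46 groups of member, class and diet that were looked at, and chance gives about 1 in 20. Pop1 in Slc17a6 neurons was 0 CPM in control replicate 6, where the nearest control mouse had 10. Rpp40 in Slc17a6 neurons was 17.6 CPM in control replicate 2, from 7 UMIs, against 6.68 in the nearest. Pop4 in Slc32a1 neurons was 69.5 CPM in control replicate 7, from 12 UMIs, against 39.2. Pop5 in Slc32a1 neurons was 47.1 CPM in high fat diet replicate 1, from 41 UMIs, against 123, and this is the high fat diet library among the 3 that stand apart. Rpph1 in glia was 75.9 CPM in control replicate 6, from 5 UMIs, against 13.3. Of the control libraries, replicates 6 and 7 held the fewest UMIs.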

How the results depend on the processing

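Of 914 member values under the alternatives, 851 kept their direction and their side of the threshold, 31 no longer passed and 32 changed sign. The cause was not tested for any of these changes, beyond fewer mice or cells where a setting leaves some out.

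Diet in Slc32a1 neurons is the comparison that chose the family, so its count of members called is a description from which no stability is read. That count, 1 as reported, was 0 with doublets kept, 0 without the 3 libraries that stand apart, 0 in pool 1 alone and 0 in pool 2 alone, and 0 to 1 with a mouse left out. It was 0 without any 1 of the 7 control replicates, without high fat diet replicate 4 or without high fat diet replicate 6. Between Slc32a1 and Slc17a6 neurons, 2 as reported, it was 1 with DESeq2, 0 in cells of 1000 to 4000 UMIs (5 members tested) and 1 without the 3 libraries that stand apart, and 1 to 2 with a mouse left out. Between glia and neurons, 7 as reported, it was 4 in cells of 1000 to 4000 UMIs (5 tested) and 6 to 7 with a mouse left out.

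Sign changes were mostly among small log2 differences that were not called, but Pop1 and Pop5 between glia and neurons were called as reported. For diet in Slc17a6 neurons, Pop4 (-0.03) was 0.07 in pool 1 alone and Pop5 (0.18) was -0.03 with a term for the libraries that stand apart. With a mouse left out, Pop4 ran from -0.20 to 0.18, Pop5 from -0.02 to 0.37 and Rpp30 from -0.23 to 0.02. For diet in Slc32a1 neurons, Pop4 (-0.01) was 0.01 with no filter, 0.27 in pool 2 alone, 0.01 with the term and -0.11 to 0.08 with a mouse left out, and Rpp30 (0.18) was -0.09 in pool 2 alone. For diet in glia, Pop4 (-0.08) was 0.17 and Rpp30 (0.20) was -0.10 in pool 1 alone, and Rpp38 (0.20) was -0.10 in pool 2 alone. Between the neuron classes, Rpp30 (-0.08) was 0.03 with classes from each barcode, and Rpp38 (0.10) was -0.19 in cells of 1000 to 4000 UMIs. Between glia and neurons, Pop1 (0.47) was -0.12 with no TMM factor, and Pop5 (-0.22) was 0.16 in cells of 1000 to 4000 UMIs. For the difference of the diet effects, Pop4 (-0.01) was 0.05 without the libraries that stand apart and -0.20 to 0.11 with a mouse left out, Pop5 (0.13) was -0.01 in cells of 1000 to 4000 UMIs and Rpp25 (-0.14) was 0.02 with classes from each barcode.

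Over all genes, calls for diet in Slc17a6 neurons (0) were 1 with no filter. In Slc32a1 neurons (2) they were 7 with no filter, 1 with classes from each barcode, 1 in cells of 1000 to 4000 UMIs, 0 with doublets kept, 0 without the 3 libraries, 0 in either pool alone and 0 to 2 with a mouse left out. Calls between the neuron classes (691) were 205 in cells of 1000 to 4000 UMIs, and those between glia and neurons (7862) were 11952 with no filter and 4664 in those cells. Calls for the difference of the diet effects (0) were 3 with no filter, 2 with classes from each barcode and 0 to 1 with a mouse left out. No paired analysis was possible because the replicate numbers follow the order of the samples and pair no mice.

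Depth limits the sparse members. Rmrp, with 12 UMIs, and Rpp40 did not pass the filter on low counts, and with no filter neither was called in any comparison, Rpp25 in glia rests on 10 UMIs, and control replicates 6 and 7 have few neurons, so each UMI counted moves their levels by several CPM. Cells were sorted into classes on the same counts, and glia were shallower than neurons.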
